A study of Mus musculus with 8 samples.

Results

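The Ly6 genes described here are 6 members of the Ly6/uPAR family on mouse chromosome 15: Ly6a, which encodes the surface protein Sca-1, Ly6c1, Ly6c2, Ly6d, Ly6e and Ly6i. They were taken by name from a table of 55573 genes. The family was chosen by the measured difference between genotypes, that of Ly6a above all, so the members' differences between genotypes are given as descriptions without p-values. All 6 are in the table, and 4 of them (Ly6a, Ly6c2, Ly6d and Ly6e) had enough counts to be among the 12500 genes tested. The measurements are RNA sequencing counts of naive CD8+ T cells, resting cytotoxic lymphocytes that have not met their antigen, taken directly from male C57BL/6 mice without culture. Cells from spleen and lymph nodes were enriched magnetically and then sorted by flow cytometry. There were 3 libraries labelled WT, 1 from mice of 7 weeks and 2 of 8 weeks, and 5 labelled Furin KO, 1 of 7 weeks and 4 of 8 weeks. FURIN is a proprotein convertase, an enzyme of the secretory pathway that cuts precursor proteins into their mature forms. How Furin was deleted and in which cells is not in the labels. Nor do they say that the libraries stand for different animals, and p-values then measure only how far these samples spread, part of which may be technical.

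Ly6 proteins are small, disulphide-folded domains held on the outer face of the plasma membrane by a glycosylphosphatidylinositol (GPI) anchor, a lipid tail attached in the endoplasmic reticulum. Sca-1 is a standard marker of mouse blood stem cells and also rises on activated lymphocytes, and the Ly6C proteins mark inflammatory monocytes and many memory CD8+ T cells. Transcription of several family members responds to interferons. Ly6D marks developing B cells, and Ly6E is widely expressed and has been studied for its effects on virus entry.

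Total counts over genes ran from 11308220 in Furin KO replicate 5 to 21040431 in Furin KO replicate 4, and levels below are CPM, counts scaled to a common TMM-adjusted library size. Furin itself stood at 57.0, 66.8 and 66.9 CPM in the WT libraries and at 63.5, 86.4, 62.2, 58.0 and 76.6 CPM in the libraries labelled Furin KO. The groups overlapped, so whole-gene Furin counts, which do not show single exons, do not check the genotype labels. The libraries were divided into 3 sets by how alike their counts were, the number 3 being set and not found. Each set held both genotypes. The first was WT 1 with Furin KO 1, the 7-week pair. The others were WT 2 with Furin KO 2 and 3, and WT 3 with Furin KO 4 and 5. The largest distance within a set (17.12, chi-square per degree of freedom) was above the smallest between sets (16.82), so the sets were not cleanly apart. No label names these sets as batches, and ratios within them are given beside the results. Of other cell types, all 10 neutrophil markers and all 6 red cell markers were at 0 in every library. The 10 monocyte and macrophage markers summed to 16.0 to 25.9 CPM in WT and 15.2 to 25.3 CPM in Furin KO, with Adgre1 and Fcgr1 at 0.

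Set against exon length, the members fell into clearly different levels. Ly6e was highest in every library, at 280 ± 26.3 CPM per kb of exons (mean ± SD, n = 8), above 99.2% of the tested genes. Ly6c2 followed at 72.4 ± 10.2 and Ly6a at 46.4 ± 25.5 CPM per kb. In WT the Ly6c2 range of 55.0 to 82.7 CPM per kb lay above the Ly6a range of 15.7 to 22.5. In Furin KO the Ly6a range of 44.3 to 80.9 CPM per kb overlapped the Ly6c2 range of 68.2 to 83.1. Ly6d was far lower at 0.711 ± 0.420 CPM per kb, and Ly6i and Ly6c1, at 0.0708 and 0.0301 CPM per kb, were at 0 in libraries of both genotypes; these low members overlapped in range.

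**Figure D1:**
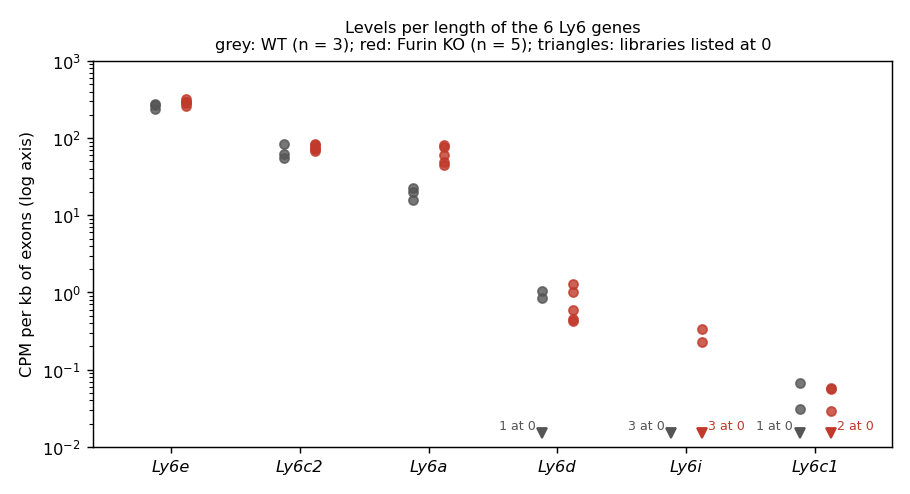
Levels of the 6 Ly6 genes as CPM per kb of exons on a log axis, 1 point per library, WT in grey (n = 3) and Furin KO in red (n = 5), with triangles counting libraries at 0. Ly6e is highest, at 237 to 325 CPM per kb, and Ly6a is the member whose red points reach the band of Ly6c2.

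Ly6a (ENSMUSG00000075602, GRCm38 chr15:74994877-74998031, minus strand), the gene of Sca-1, was 3.22-fold higher in mean level in the libraries labelled Furin KO. Its levels were 18.9, 24.2 and 27.2 CPM in WT replicates 1 to 3 and 59.4, 92.7, 97.4, 73.8 and 53.4 CPM in Furin KO replicates 1 to 5. Every Furin KO library lay above every WT library: the lowest, Furin KO 5, held 53.4 CPM and the highest WT library 27.2. The group values were 23.4 ± 4.19 CPM (SD, n = 3) and 75.4 ± 19.5 CPM (n = 5), and the log2 fold change was 1.69 with a standard error of 0.19 and a 95% interval of 1.28 to 2.09. In edgeR's quasi-likelihood fit Ly6a was the 1 of the 4 tested members past the threshold of a Benjamini-Hochberg adjusted p of 0.05; 0.0320% of all tested genes passed it, 0.0240% upward. Nothing is read from that count, because this contrast chose the members. By fitted rise Ly6a ranked 70 among the 12500 tested genes and 1 among the 9275 with a mean of at least 5 CPM.

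The Ly6a ratio of Furin KO to WT was 3.15 in the 7-week pair of libraries, 3.93 in the set of WT 2 and 2.34 in the set of WT 3. Furin KO 2 and 3, with 92.7 and 97.4 CPM, were both of the same set, while Furin KO 5, the shallowest library, had the lowest Furin KO value. Within the 8-week libraries alone the ratio of means was 3.09. Markers of CD4+ and regulatory T cells summed to 48.1 to 57.0 CPM in WT and to 61.1 to 79.9 CPM in Furin KO. That sum came mostly from Izumo1r, at 39.8 ± 8.43 CPM in WT and 56.3 ± 7.84 CPM in Furin KO. Fold changes were above 0 for 2 of the 5 tested markers and below 0 for 3, with a median log2 fold change of -0.17. The ranges of the sums did not overlap between genotypes. Of the 5 tested markers 1, other than Izumo1r, had groups that did not overlap, with Furin KO higher, as 1.31% of all tested genes did. The part of these markers in the Ly6a difference was not tested. In bulk RNA, more cells carrying a transcript and more transcript per cell cannot be told apart.

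**Figure D2:**
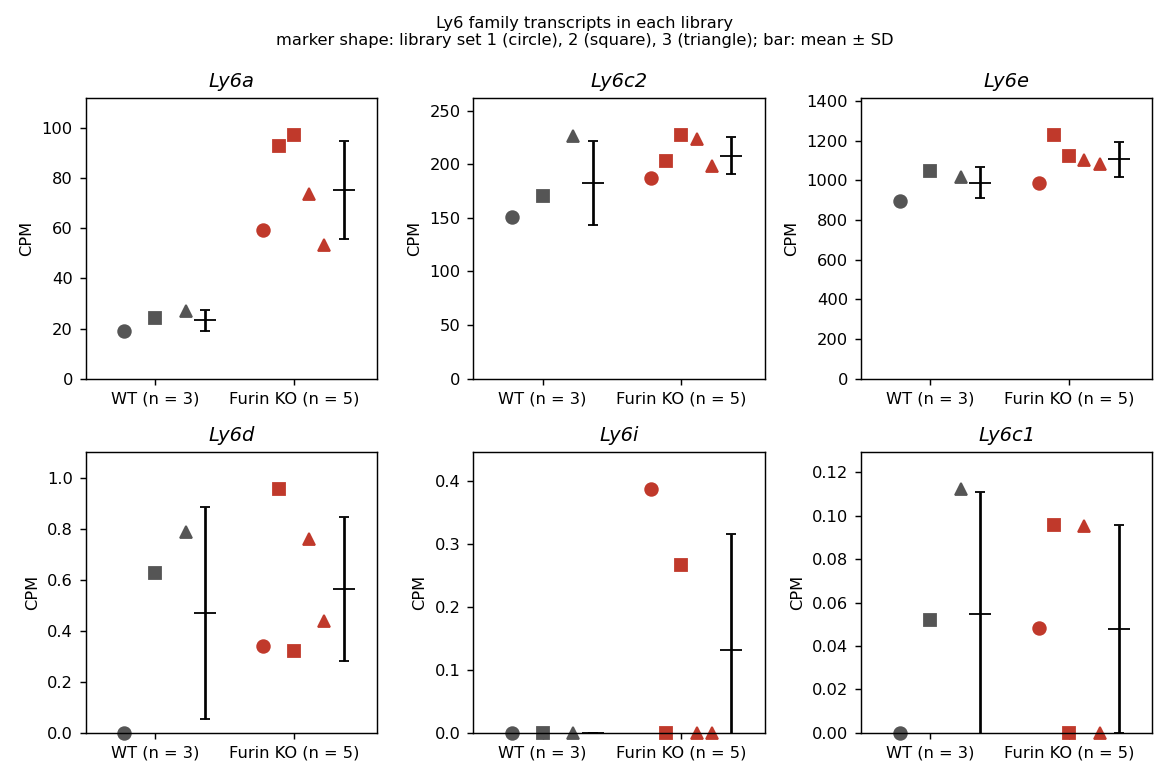
CPM of each Ly6 gene in each library, WT in grey (n = 3) and Furin KO in red (n = 5), with marker shapes for the 3 sets of similar libraries and bars for the mean ± SD; each panel has its own axis from 0. The Ly6a points separate by genotype, at 18.9 to 27.2 against 53.4 to 97.4 CPM, while those of the other members overlap.

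Ly6e (ENSMUSG00000022587, chr15:74955051-74959905, plus strand) stood at 898, 1049 and 1018 CPM in WT and at 986, 1231, 1124, 1102 and 1082 CPM in Furin KO. Furin KO 1 lay below WT 2 and WT 3, so the groups overlapped. The log2 fold change was 0.16 with a standard error of 0.09 and a 95% interval of -0.03 to 0.35. Within the 3 sets of libraries the ratios of Furin KO to WT were 1.10, 1.12 and 1.07. Of the 4 tested members Ly6e varied least between libraries of a genotype, with a coefficient of variation of 8.07% in WT and 7.94% in Furin KO.

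Ly6c2 (ENSMUSG00000022584, chr15:75108158-75111970, minus strand), which encodes a Ly6C protein, was at 151, 170 and 227 CPM in WT and at 187, 203, 228, 223 and 199 CPM in Furin KO. WT 3 lay above 4 of the 5 Furin KO libraries. The log2 fold change was 0.19 with a standard error of 0.12 and a 95% interval of -0.06 to 0.44. The ratio was 1.24 in the 7-week pair, 1.26 in the set of WT 2 and 0.932 in the set of WT 3. The neighbouring copy Ly6c1 (ENSMUSG00000079018, chr15:75044018-75048830, minus strand), the other Ly6C gene, held 0, 1 and 2 counts in WT and 1, 2, 0, 2 and 0 counts in Furin KO. Summed over libraries, Ly6c2 held 9492 counts in WT and 19318 in Furin KO, against 3 and 5 for Ly6c1.

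Because a pair of close copies differed this much in level, their promoter windows are shown, each from 250 bases before to 50 bases after the start in RefSeq on GRCm38.p6, 5′ to 3′ on the gene's strand. RefSeq windows were matched for these 2 of the 6 members, and of the 2 windows of each gene the one nearest the annotated start was used. Lower case marks bases identical in the alignment of the pair, and capitals mark bases that differ, face a gap or lie beyond the alignment. The Ly6c1 window is chr15:75048788-75049087 and the Ly6c2 window chr15:75111922-75112221, both on the minus strand.
Ly6c1: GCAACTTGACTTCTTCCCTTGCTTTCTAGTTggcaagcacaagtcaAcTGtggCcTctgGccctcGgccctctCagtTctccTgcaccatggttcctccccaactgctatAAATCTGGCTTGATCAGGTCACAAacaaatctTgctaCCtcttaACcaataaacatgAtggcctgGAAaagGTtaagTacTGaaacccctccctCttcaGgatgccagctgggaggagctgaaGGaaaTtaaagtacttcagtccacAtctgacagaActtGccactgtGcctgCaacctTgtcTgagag
Ly6c2: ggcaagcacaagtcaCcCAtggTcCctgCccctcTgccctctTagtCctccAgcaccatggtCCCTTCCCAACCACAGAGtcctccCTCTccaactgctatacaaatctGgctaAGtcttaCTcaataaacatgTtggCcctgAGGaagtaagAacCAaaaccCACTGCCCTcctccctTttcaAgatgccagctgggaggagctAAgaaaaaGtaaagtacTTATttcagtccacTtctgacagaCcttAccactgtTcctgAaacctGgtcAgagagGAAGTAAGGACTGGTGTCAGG
Of 241 aligned bases 209 were identical (86.7%), with 32 mismatches and 66 gap positions. The ETS motif GGAAGT was found at 2 places in the Ly6c2 window, starting at -106 and 29 from the start, and in none of Ly6c1. The match at 29 runs into the last 21 bases of the Ly6c2 window, which lie beyond the alignment. The Ly6c1 window does not reach that sequence, so the copies were not compared there. Of 32851 windows of this length 23.8% hold GGAAGT on either strand. The RUNX motif TGTGGT matched at 1 place, on the minus strand at -179 in Ly6c2, and it is in 16.8% of all windows. TATAAA matched at -143 in Ly6c1 alone, against 13.6% of windows. Neither window held the gamma-activated site TTCNNNGAA, the core of the interferon-stimulated response element or the T-box half-site AGGTGTGA, which are in 8.30%, 3.44% and 1.28% of windows. These letter matches are descriptions of the windows and say nothing of factor binding.

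Ly6d (ENSMUSG00000034634, chr15:74762056-74763620, minus strand), the marker of early B cells, stood at 0, 0.626 and 0.787 CPM in WT and at 0.339, 0.958, 0.320, 0.762 and 0.439 CPM in Furin KO. These values rest on 0 to 20 counts a library, and the groups overlapped, with WT 1 at 0. The log2 fold change of 0.24 had a standard error of 0.95 and a 95% interval of -1.75 to 2.24, so a difference was not detectable at this depth. In the 8-week libraries alone its sign turned, to -0.17. B cell markers summed to 23.9 to 31.0 CPM in WT and 21.6 to 30.9 CPM in Furin KO. Of these 10 markers Ms4a1, Cd22 and Fcer2a were at 0 in every library, and 5 reached 3 counts in a library. Ly6i (ENSMUSG00000022586, chr15:74979534-74983430, minus strand), a family member known from myeloid cells, had no count in any WT library and 8, 0, 5, 0 and 0 counts in Furin KO 1 to 5. A count of 0 allows up to 0.157 to 0.206 CPM in the WT libraries and 0.143 to 0.264 CPM in the 3 Furin KO libraries at 0, against 0.388 and 0.267 CPM in Furin KO 1 and 3. The groups overlapped at 0, and the Furin KO mean of 0.131 CPM lay under the limits of the WT libraries, so no fold is given. These limits cover counting error only.

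Summed over the 6 genes, the family held 1195 ± 111 CPM in WT (n = 3) and 1389 ± 112 CPM in Furin KO (n = 5), and the groups overlapped. Ly6a made up 1.95 ± 0.183% of this sum in WT and 5.38 ± 1.06% in Furin KO. Ly6e made up 82.8 ± 2.44% and 79.6 ± 1.44% of it, and Ly6c2 13.7 to 17.8% and 13.3 to 16.0%. Ly6a therefore stayed a small part of the family's RNA in both genotypes.

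Sequence shared between copies limits how far the counts can be assigned. Of the 50-base stretches in Ly6a transcripts 19.0% are also in another gene, most often Ly6c1, and 1.45% of its 100-base stretches are. For Ly6c1 the shares are 32.8% and 10.1%, mostly with Ly6c2, and for Ly6c2 14.5% and 5.81%. Ly6i shares 4.76% of its 50-base stretches, and Ly6d and Ly6e share none. Neither the read length nor how reads with several matching genes were counted is stated in the labels, so Ly6c1, Ly6c2, Ly6a and Ly6i are uncertain to that extent.

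Age was not used to choose the genes and could be tested in a model with genotype. From 7 to 8 weeks the log2 fold change of Ly6a was 0.43 (95% interval 0.04 to 0.82; adjusted p = 0.317 in edgeR's quasi-likelihood test), that of Ly6c2 0.28 (0.05 to 0.52; adjusted p = 0.276) and that of Ly6e 0.20 (0.04 to 0.36; adjusted p = 0.249). Ly6d gave 1.87 (-0.63 to 4.37; adjusted p = 0.524), and this value rested on single libraries, at 0.87 without WT replicate 1 and 6.65 without Furin KO replicate 1. None of the 4 passed, while 3 had an unadjusted p under 0.05 and DESeq2 called none of the 3 for which it gave an adjusted p; 0.336% of all tested genes passed, 0.0800% with the higher level at 8 weeks. Nothing is read from the 3 with an unadjusted p under 0.05, since that share over all tested genes is not given for age. The 7-week library was the lowest of its genotype in both genotypes for Ly6c2 and Ly6e, a pattern found in 12.5% of tested genes. The 2 libraries of 7 weeks also form 1 of the 3 sets of similar libraries, so age and set cannot be told apart.

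Position on the chromosome was examined next. The members span 349915 bases, from 74762056 to 75111970, and 23 of the 88 other genes within 1 Mb of that span were tested. None of the 23 passed the threshold in edgeR, DESeq2 or limma-voom, and 0 had an unadjusted p under 0.05 in edgeR; 11 had a fold change above 0 and 12 below, with a median of -0.03 against -0.0007 over all tested genes, and in none did the groups separate. The most abundant of them were Eef1d, a translation elongation factor subunit, with a log2 fold change of -0.03, Puf60, a splicing factor, with 0.03, Gsdmd, the pore-forming gasdermin D, with 0.10, the polarity gene Scrib with 0.01 and Them6 with 0.00. The range ran from -0.51 for the long noncoding RNA Gm39556 to 1.01 for Nrbp2, whose 95% interval was -0.76 to 2.77.

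**Figure D3:**
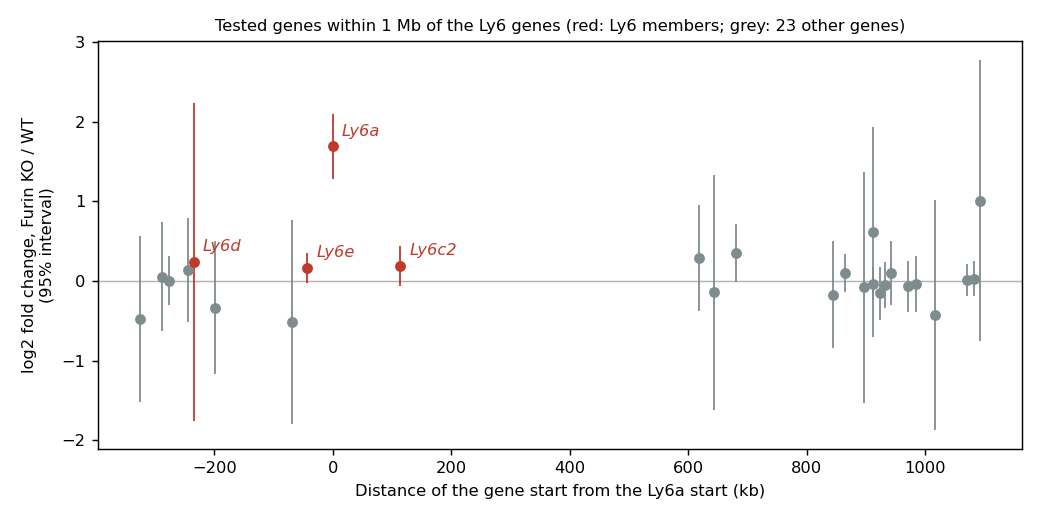
Log2 fold change of Furin KO over WT with its 95% interval for the 4 tested Ly6 members (red) and 23 other tested genes (grey), against the distance of each gene's start from that of Ly6a in kb. The Ly6a interval of 1.28 to 2.09 stands above those of Ly6e and Ly6c2 at its sides, and no grey gene passed the threshold.

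Within the span itself, 2 further genes below the count filter had groups that did not overlap; both were picked out after their counts were seen. Gm8000, an unprocessed pseudogene (chr15:74986591-74988460, minus strand) whose nearer end lies 6417 bases from Ly6a, had 0, 1 and 0 counts in WT and 16, 3, 5, 6 and 8 counts in Furin KO. Per sequenced count that is a ratio of 21.1, with an exact 95% interval of 3.57 to 856 that covers counting error only. Without the count filter its adjusted p was 0.868 in edgeR's quasi-likelihood test, so it did not pass. None of its 543 stretches of 50 bases is in Ly6a. In other genes 10.5% are found, all of these in Gm9847 and some also in Socs2.

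The family gene Ly6m, listed as 2010109I03Rik (chr15:74876987-74897021, minus strand), had 0, 3 and 7 counts in WT and 11, 9, 10, 11 and 9 counts in Furin KO. The ratio per sequenced count was 2.78 (exact 95% interval 1.39 to 6.14, counting error only), and the adjusted p without the filter was 0.909 in edgeR's test. In CPM the groups did not overlap, at 0 to 0.394 against 0.431 to 0.791. Groups that did not overlap were found in 2.90% of the 12500 tested genes and in 1.31% with Furin KO higher. Gm8000 and Ly6m lie below the count filter, and the share among such genes was not counted. The pseudogene Gm5960 was at 0 in 6 libraries and held 9 and 10 counts in Furin KO 4 and 5, which belong to 1 set.

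**Figure D4:**
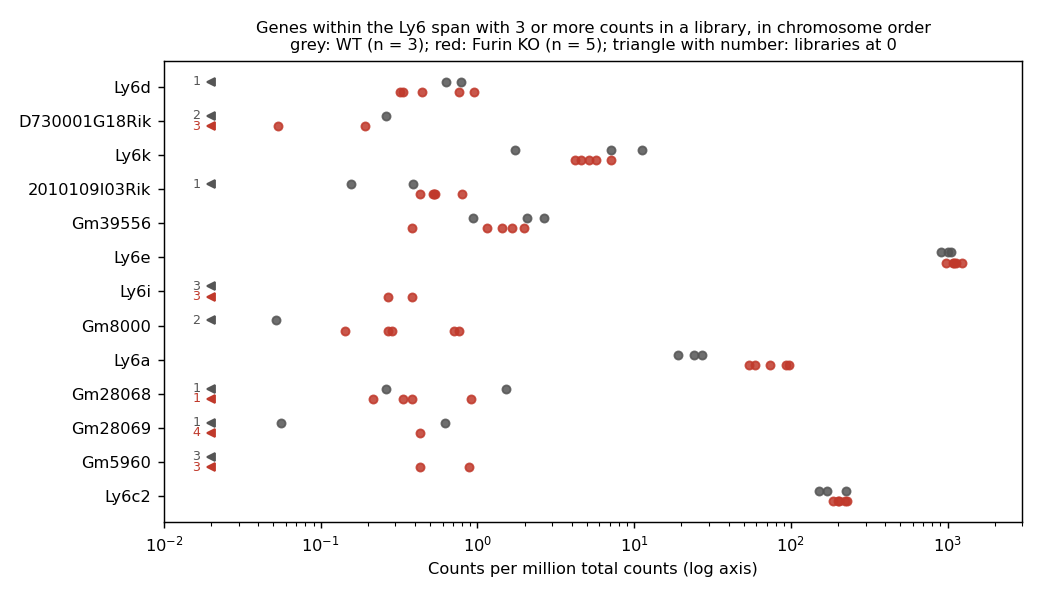
Counts scaled to total counts (CPM without TMM adjustment) on a log axis for the 13 genes within the Ly6 span that reached 3 counts in a library, in chromosome order, WT in grey and Furin KO in red, with the number of libraries at 0 beside triangles. The red points of Ly6a, Gm8000 and 2010109I03Rik lie apart from the grey points, and the other 10 genes overlap.

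The rest of the Ly6/uPAR family was nearly silent in these cells: 26 of 33 further family genes in the table had no count in any library, among them Ly6g, the neutrophil marker, and Psca. The 5 that were tested gave no call in edgeR, DESeq2 or limma-voom, and 0 had an unadjusted p under 0.05 in edgeR. Lypd6b, a modulator of nicotinic receptors, was at 44.0 ± 3.68 CPM in WT and 45.1 ± 1.48 CPM in Furin KO. Plaur, the urokinase receptor uPAR for which the family is partly named, was at 18.3, 17.1 and 17.6 CPM in WT and at 14.6, 16.4, 10.9, 14.9 and 13.5 CPM in Furin KO. The Plaur groups did not overlap, with a log2 fold change of -0.33 (95% interval -0.67 to 0.02; adjusted p = 0.9998 in edgeR's quasi-likelihood test). Ly6k, at 1.72 to 11.3 CPM in WT, Lynx1 and Ly6g5b had log2 fold changes of -0.33, 0.14 and -0.55 with intervals across 0. The signs of these 3 and of Lypd6b turned when WT replicate 1 or 2 was left out or in the 8-week libraries alone.

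Of 27 tested genes that build the GPI anchor none passed in edgeR, DESeq2 or limma-voom and 1 had an unadjusted p under 0.05 in edgeR, as 401 of all 12500 tested genes did; 15 were above 0 and the median log2 fold change was 0.01. Piga, which acts in the opening step of anchor synthesis, had a log2 fold change of 0.27 with a 95% interval of 0.03 to 0.52, Pigf 0.50, Pigl 0.26 and Pigm 0.19. Of 14 tested genes of other GPI-anchored surface proteins none passed with these tools either and 4 had an unadjusted p under 0.05, with 7 above 0 and a median of 0.00. Art2b, an ADP-ribosyltransferase of T cells, had a log2 fold change of 0.41, Izumo1r, a folate receptor family member of T cells, 0.50, and Cd160, a receptor of cytotoxic cells, -0.35. Sema7a, a GPI-anchored semaphorin, was at 0 to 0.843 CPM in WT and 1.01 to 2.72 CPM in Furin KO, and its log2 fold change of 2.21 had a standard error of 0.86, with 1.61 when WT replicate 2 was left out and 3.48 when WT replicate 3 was.

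Among 35 tested genes of interferon and cytokine signalling, 1 passed the threshold, 8 had an unadjusted p under 0.05, 28 were above 0, and the median log2 fold change was 0.07. Over all 12500 tested genes 0.0320% passed, 401 had an unadjusted p under 0.05 in edgeR and 49.8% were above 0. The gene of this list that passed was Socs3, which encodes a feedback inhibitor of cytokine receptors. Socs3 rose from 236 ± 8.30 CPM (n = 3) to 445 ± 70.0 CPM (n = 5), higher in 5 of 5 Furin KO libraries than in any WT library (log2 fold change 0.92, SE 0.12, adjusted p = 0.00164, edgeR's quasi-likelihood test). The log2 fold change of Jak3, a kinase bound to the shared cytokine receptor chain, was 0.32, that of Irf8 0.69 and that of Ifngr2, a chain of the interferon gamma receptor, -0.33, and these did not pass.

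Of 38 tested interferon-induced genes edgeR called none and DESeq2 1, and 6 had an unadjusted p under 0.05 in edgeR; 27 had a fold change above 0, against 49.8% of all tested genes, and their median was 0.16. The largest among those named was Iigp1, an immunity-related GTPase, at 17.6, 22.4 and 17.1 CPM in WT and 33.4, 48.5, 47.3, 42.9 and 23.2 CPM in Furin KO. Every Furin KO library of Iigp1 lay above the WT libraries, Furin KO 5 by the least, and its log2 fold change of 1.04 (SE 0.20) had an adjusted p of 0.156 in edgeR's test. With library set as a factor, a grouping drawn from these same counts, Iigp1 passed, at an adjusted p of 0.0067 in the same test. Over all alternatives its adjusted p ran from 1.2e-07 to 0.999. Gbp2 and Gbp5, guanylate-binding proteins, had log2 fold changes of 0.47 and 0.31, and the GTPase Igtp 0.41. For each of these 3 genes the adjusted p was 0.9998 in the same test.

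Genes of memory-phenotype CD8+ T cells, which carry Ly6C and Sca-1 with CD44, gave no call among 17 tested in edgeR and 1 in DESeq2. In edgeR 1 had an unadjusted p under 0.05, and 11 were above 0, against 49.8% of all tested genes, with a median of 0.01. Tbx21, the transcription factor T-bet, was at 1.24 to 2.88 CPM in WT and 4.41 to 8.38 CPM in Furin KO without overlap, with a log2 fold change of 1.74 (SE 0.35) and an adjusted p of 0.171 in edgeR's test. Cd44 stood at 0.313 to 1.92 CPM in WT and 1.05 to 2.72 CPM in Furin KO, while the chemokine receptor gene Cxcr3 was at a log2 fold change of 0.58 and the granzyme gene Gzmm at -1.06. Of 16 tested naive T cell genes edgeR called none and DESeq2 1, and 2 had an unadjusted p under 0.05 in edgeR. Of these 16 genes 11 were above 0, and the median was 0.03. Igfbp4, a secreted binding protein of insulin-like growth factors, had a log2 fold change of 0.56 with an adjusted p of 0.406 in edgeR's test. It passed at 0.0166 in that test with library set as a factor, again a grouping drawn from these same counts. Over all its alternatives that adjusted p ran from 8.9e-05 to 1. The log2 fold change of Il7r, which encodes the interleukin 7 receptor, was -0.29 and that of Actn1 -0.08.

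The spread of Ly6a among libraries of the same genotype was compared with that of other genes, by Pearson's r over the 8 libraries after subtracting each genotype's mean of log2(CPM + 1). These values are descriptions over 8 libraries that share depth and set. Ly6a had r = 0.75 with Ly6e and 0.64 with Ly6c2, and Ly6c2 and Ly6e had 0.49 with each other. Ly6a also had r = 0.62 with the log10 of the total counts, against 0.26 for Ly6c2 and 0.30 for Ly6e. With Socs3, the other gene of these lists past the threshold, Ly6a had r = 0.00, and with Tbx21 0.06.

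Of 37 interferon-induced genes with a mean of at least 5 CPM, 13 (35.1%) had r above 0.5 with Ly6a, against 20.5% of 9272 tested genes, and the medians were 0.26 and 0.02. The share was 40.0% of 10 memory-phenotype genes, with a median of 0.48. It was 43.8% of 16 naive T cell genes, of which 8 had r above 0, with a median of 0.04. The share was highest in the other GPI-anchored surface proteins, at 63.6% of 11 genes. That list and the interferon-induced one are not separate, since Bst2, with r = 0.57, is in both. With Ly6e the interferon-induced genes had a median of -0.03. Their values with Ly6a ranged widely: Igtp had 0.96, Ifi47 0.86, Isg15 0.85, Gbp2 0.82 and Iigp1 0.81, while Oas2 had -0.82, Xaf1 -0.61 and Rsad2 -0.52. Other GPI-anchored surface proteins had a median of 0.60 over 11 genes, with Art2b at 0.86, Cd160 at 0.80 and Cd52 at 0.67, and their median with Ly6e was 0.74. Ly6c2 had medians of 0.18 with the interferon-induced genes and 0.33 with the GPI-anchored ones.

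**Figure D5:**
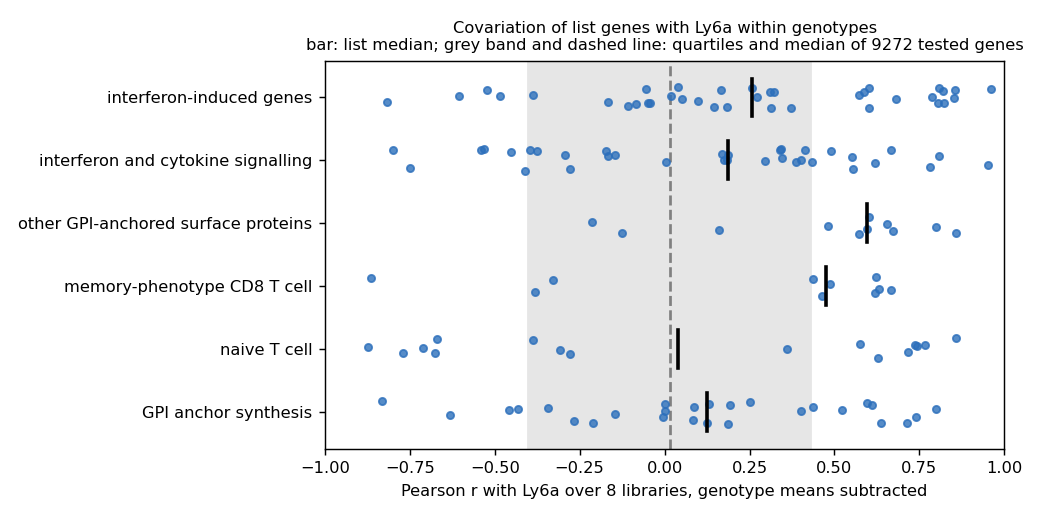
Pearson's r with Ly6a over 8 libraries after subtracting genotype means, 1 point per gene of 6 lists, with a bar at each list's median and the median (0.02) and quartiles (-0.40 to 0.43) of 9272 tested genes in grey. The interferon-induced genes run from -0.82 to 0.96, and most of the other GPI-anchored surface proteins lie to the right of 0.43.

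Among 8787 genes ranked, those whose levels over all 8 libraries were most like Ly6a were Pcmtd1 (r = 0.95), Wars (0.94), Iigp1, Naaa and Cops3 (0.93 each). These values include the genotype difference that chose Ly6a. After subtracting genotype means the most alike were Copz1 (r = 0.99), Atp5j (0.98), Serpini1, Bpgm and Tmem59 (0.97 each). Over 8 libraries, values this high are the upper end of a ranking of all these genes. Between genotypes the log2 fold changes of these 5 genes were -0.00, 0.11, 0.26, 0.17 and -0.09 in that order, and none passed the threshold.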

How the data were processed

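The authors deposited raw whole-number counts per gene, with 1 column for each of the 8 samples. Genome build GRCm38 and the programs STAR, Trim Galore, FastQC and DESeq2 1.24.0 appear per the submitters' processing notes. Which program counted, with which annotation and strand setting, is not given in the sources used here. Columns were matched to samples by title; that of Furin KO replicate 4 stands among the WT columns, and its label was used. GENCODE on GRCm38 gave symbols for 55480 of 55573 gene IDs.

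Genotypes were compared on the counts by the two-sided quasi-likelihood test of edgeR 4.0.16, in R 4.3.3 with limma 3.58.1. Library sizes were TMM-scaled, and genes were filtered by filterByExpr with genotype as the group and a minimum count of 10. Adjustment was by Benjamini-Hochberg over all 12500 tested genes, with a threshold of 0.05. Standard errors were derived from the fold change and its F statistic. The edgeR genotype fit was tested on counts simulated from its own means and dispersions, with independent libraries and without sets or age. That test cannot show how the fit behaves on libraries that form sets. Correlations used log2(CPM + 1). Libraries held 11308220 to 21040431 counts, which limits the precision.

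The members and the gene lists were chosen with earlier results of these data known. Genes are named by rule: all members, Furin, other family genes with at least 3 counts in a library, the 4 genes of lowest unadjusted p in each list, the 5 most abundant neighbours and the 5 genes most like Ly6a by each measure. A gene that this rule names is not reported here. Genes named for correlations, for counts within the span or as markers were picked with their values known. Alternatives were other size factors, other filters, DESeq2 1.42.0, limma-voom, age or library set as a factor, the 8-week libraries alone, and each library left out.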

Additional observations from a re-analysis of the deposited data

Results flagged for a closer look

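Among 51 genes checked in the 5 Furin KO libraries, 4 had a library far from the other 4 by Dixon's criterion, and chance flags about 1 in 20, or 2.55 of 51. 2010109I03Rik (Ly6m) stood at 0.791 CPM in Furin KO 5 against 0.431 to 0.534 in the others. The GPI anchor gene Pigm stood at 70.5 CPM in Furin KO 1 against 54.6 to 59.1. Scrib, a neighbour of the Ly6 genes, stood at 136 CPM in Furin KO 5 against 120 to 124. Pcmtd1, the gene most like Ly6a over all libraries, stood at 81.1 CPM in Furin KO 5 against 88.0 to 90.2. None of the 6 Ly6 members had such a library. Furin KO 5 is the library with the fewest counts, and the part of depth in these values was not tested.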

How the results depend on the processing

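Over 18 alternatives, 1 of which summed its counts with those of its closest copy, the log2 fold change of Ly6a was 1.56 to 1.81; since this contrast chose the gene, that is a description and no support. No neighbour was called under any of 17 alternatives, and no member was called for age under any of 11. The number of genes called was 4, against 38 with no filter beyond 1 count, 15 with DESeq2 and 12 with library set as a factor, and 3 to 5 with each replicate left out. Of the list genes 1 was called, against 6, 4 and 3 in those same fits and 1 to 2 with each replicate left out, 2 of them without Furin KO replicate 5. Iigp1 passed in those 3 fits and without Furin KO replicate 5, with log2 fold changes of 1.002 to 1.17; Igfbp4 passed in the same 3 fits, Tbx21 without the filter and with DESeq2, and Gbp2 and Igtp without the filter; the cause was not tested. Directions turned for genes with few counts or small differences. Ly6d gave -0.17 in the 8-week libraries, -0.04 without Furin KO replicate 2, and -0.31 to 0.80 over all libraries left out in turn, lowest without WT replicate 1. Lypd6b gave -0.030 in the 8-week libraries and -0.020 to 0.096 with libraries left out, lowest without WT replicate 1. Ly6g5b gave 0.011 in the 8-week libraries. With libraries left out, Ly6k ran from -0.78 to 0.26 and Lynx1 from -0.12 to 0.50, both turning without WT replicate 2. No paired analysis was possible because replicate numbers follow accession order and the labels give no pairing. Depth limits Ly6d, Ly6i, Ly6c1, Gm8000 and Ly6m, which rest on few counts.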
